A study of Mus musculus with 6 samples.

Results

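Myeloid marker genes were examined in cultures of a mouse pre-B cell line, using 16 array probes that the array design names for 10 genes, out of 55681 probes in all. The genes were Csf1r, Csf3r, Siglech, Tyrobp, Lyz1, Lyz2, Ctss, C1qb, Mpeg1 and Emr1, and every non-control probe with one of these names was kept. All 10 genes matched a RefSeq gene through the accession of their probes, and Emr1, which encodes the macrophage antigen F4/80, is called Adgre1 there.

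The cells were the line 1676, obtained by long culture of whole bone marrow from SLP-65-/- LAT-/- mice in IL-7. The line lacks both adaptor proteins, is held at the pre-B stage and grows in IL-7. The arrays cover 3 groups of 2, all kept in IL-7 and selected with puromycin after retroviral transduction: cells with an empty control vector, cells overexpressing hsa-miR-26a-2 (miR-26a) and cells with a sponge transcript that binds members of the miR-26 family (sponge). The replicate number stands for the experiment, and each experiment used cells generated separately from the same line. No animal, genotype or culture condition differed between the groups. With 2 arrays a group, precision is limited. The 6 arrays were scanned from 1 slide, and 28823 to 29800 of the 59305 spots of each array were flagged well above background, with 0 saturated spots.

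Myeloid cells are the granulocytes, monocytes, macrophages and dendritic cells of the marrow, and their genes are normally silenced as a progenitor commits to the B lineage. Signals from CSF1 and CSF3 reach them through the receptor tyrosine kinase CSF1R and the cytokine receptor CSF3R. Siglec-H, a receptor of the Siglec family on plasmacytoid dendritic cells, signals through DAP12, the adaptor encoded by Tyrobp. Lysozymes, cathepsin S, complement C1q and perforin-2 (Mpeg1) are effectors of these cells. Cathepsin S also trims invariant chain in B cells and other antigen presenting cells.

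Probe sequences are shown first because the probes with the highest member signals share stretches with probes for other genes. The first pair are stretches of the probes with the highest member signals, in which capitals mark the longest run also held on the same strand by at least 3 probes for other genes. The second pair come from probes without a long shared run, one for the same Siglech transcript and one for Ctss.
Csf3r bright probe, bases 31 to 60: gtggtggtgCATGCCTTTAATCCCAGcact
Siglech bright probe, bases 9 to 38: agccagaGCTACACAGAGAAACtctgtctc
Siglech probe not above background, bases 1 to 30: acaacagttaaattcccttgcagagacatc
Ctss probe, bases 1 to 30: cctgttgtctagtgttttctaataaccatt
The mature mouse sequences of the miRNAs that were raised or sequestered, taken from RefSeq, are shown with the seed (bases 2 to 8) in capitals. They share this seed.
mmu-miR-26a-5p: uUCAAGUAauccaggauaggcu
mmu-miR-26b-5p: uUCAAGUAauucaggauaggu
The words that pair with the seed, TACTTGA and ACTTGAA, occurred in 0 of the 16 member probes and in 532 of all 55681 probes (0.955%). A probe covers 60 bases, so this says nothing of the rest of each transcript.

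Signals are given below as the log2 of the quantile-normalised intensity of a probe. A probe's brightness also depends on its sequence, so levels of different probes do not rank transcripts. A probe is called detected on an array where the scanner software flagged its spot as well above background, and the dimmest detected probe of each array lay between 3.41 and 3.69. The median of all probes was 3.50. Over the members, 7 of 16 probes, of 6 genes, were detected on all 6 arrays, 6 on some and 3 on none. Of the whole array, 44.8% of probes were detected on all 6 and 44.9% on none. In bulk RNA, fewer cells of a type and less RNA per cell cannot be told apart.

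**Figure D1:**
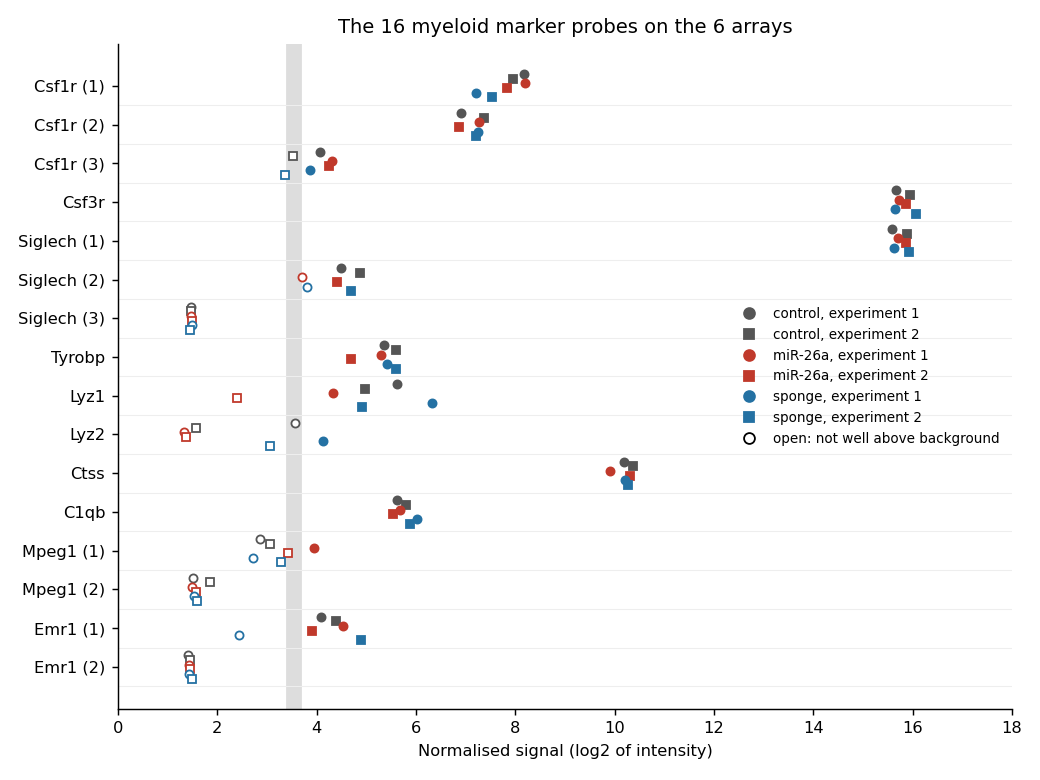
Normalised signal (log2 of intensity, x axis) of the 16 member probes on the 6 arrays. Colours stand for the groups, circles for experiment 1 and squares for experiment 2, open symbols were not detected, and the grey band is the signal of the dimmest detected probe (3.41 to 3.69). The Csf3r probe and 1 of the 3 Siglech probes lie at 15.58 or above on every array, whereas the lower Siglech, Mpeg1 and Emr1 probes lie in the background.

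Among the receptors, Csf3r gave the highest signal of all members. Its probe (mm9 chr4:125721478-125721537) read 15.67 and 15.94 with the control vector, 15.73 and 15.86 with miR-26a, and 15.65 and 16.06 with the sponge. On every array it lay between the 98.3 and 98.7 percentile of all probes, and the 3 groups overlapped. The value in experiment 2 was the higher one in each group.

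Siglech was measured by 3 probes that disagreed. The bright probe (mm9 chr7:63034088-63034147) read 15.58 and 15.88 in control cells, 15.71 and 15.87 with miR-26a, and 15.61 and 15.92 with the sponge. The probe at chr7:63033826-63033885, 202 bases away and assigned to the same transcript, was detected on 0 of 6 arrays, at 1.45 to 1.50. The other probe, designed to another Siglech transcript (chr7:63028608-63028667), was detected on 4 arrays, at 4.49 and 4.87 with the control vector, 3.72 and 4.41 with miR-26a, and 3.81 and 4.69 with the sponge. The bright signal was therefore seen with 1 of 3 Siglech probes.

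The 2 bright probes also shared longer runs with probes for other genes than any other member probe did. The last 30 bases of the Csf3r probe are found whole in a probe for the transcript cluster TC1653005, which read 15.91 on average over the 6 arrays. The capital run of 17 bases shown above occurs in 3 other probes, with mean signals of 11.16, 12.79 and 15.91. The capital run of 15 bases of the Siglech probe occurs in 8 other probes. Of these, the probes named for Glrx2, Elk1, Med16 and Cxcl11 read 18.07, 17.82, 17.51 and 17.15, Gm10856 and 9230110C19Rik read 16.19 and 13.18, and AK138782 and Cdcp1 read 7.77 and 4.34. Beyond this stretch the Siglech probe ends in a run of AAAG units, where it shares 22 bases with a probe for F10.

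Counted over any word of 14 bases, a length chosen after the signals were seen, the Csf3r probe shared a word on the same strand with 13 other probes and the part of the Siglech probe before the AAAG run with 10. The AAAG run shared a word with 8 further probes, of which 1 lay in the top 5%. Of the other 14 member probes, none shared a 14-base word on the same strand with more than 3 probes for other genes. The 23 same-strand sharers had a median signal of 11.16, 9 of them (39.1%) lay among the top 5% of all probes, and 21 were detected on every array. The 19 probes that held such a word on the opposite strand had a median of 6.44, and 0 of them lay in the top 5%. The sharers of one probe overlap in sequence, so they are not independent. With 16-base words, the Lyz2 probe had 1 same-strand sharer, for Angpt2, and the AAAG run of the Siglech probe 6. The Csf3r probe had 6 (median 11.97) and the Siglech part before the run 1, at 4.34. At this length that part did not exceed the Lyz2 probe. As background, the B1 short interspersed repeat lies in many mouse transcripts and carries letters much like these stretches. The part of repeat-bearing transcripts in the Csf3r and Siglech signals was not tested, and the 2 probes are given below as probe signals.

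**Figure D2:**
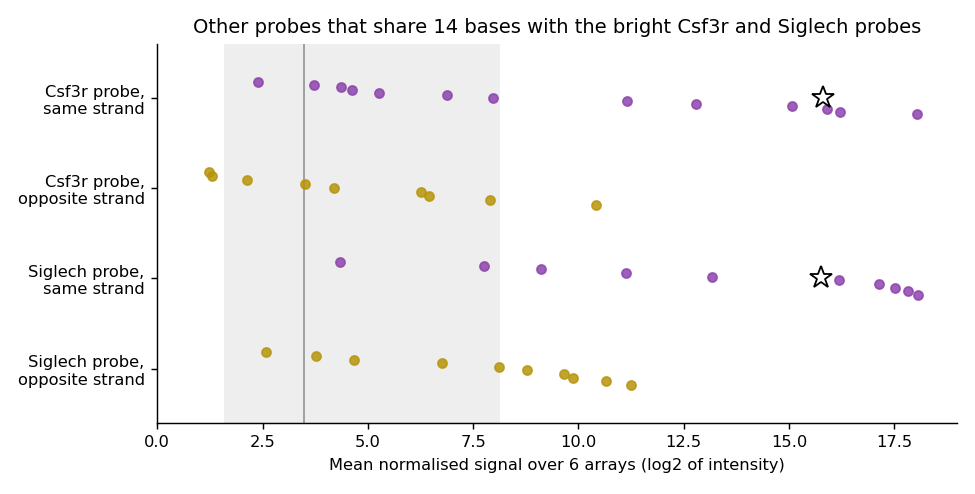
Mean normalised signal over the 6 arrays (log2 of intensity, x axis) of probes for other genes that share a word of 14 bases with the bright Csf3r probe or with the part of the bright Siglech probe before its AAAG run, on the same strand (purple) or the opposite strand (ochre). Stars are the member probes (15.82 and 15.76), the grey line is the median of all probes (3.50) and the band their middle quartiles (1.62 to 8.12). Same-strand sharers reach 18.07, opposite-strand sharers 11.26.

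Csf1r, the receptor that sustains monocytes and macrophages, was also read by 3 probes. The brightest gave 8.18 and 7.95 in control cells, 8.21 and 7.84 with miR-26a, and 7.20 and 7.53 with the sponge. Both sponge arrays were the lowest of the 6. The next probe gave 6.91 and 7.37 with the control vector, 7.27 and 6.86 with miR-26a, and 7.25 and 7.22 with the sponge, and here the groups overlapped. The last spans 361 bases of the genome, more than its own length, and was detected on 4 arrays, at 3.37 to 4.31. Neither of the tested Csf1r probes shared 16 bases with a probe for another gene.

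Tyrobp, the adaptor on which Siglec-H, TREM receptors and other activating receptors depend, was dim. Its probe (mm9, between chr7 positions 31200651 and 31202378) was detected on all 6 arrays, at 5.35 and 5.59 in control cells, 5.30 and 4.68 with miR-26a, and 5.42 and 5.60 with the sponge. The second miR-26a array was the lowest, and the other 5 lay between 5.30 and 5.60. Its processed signal exceeded 50, the limit for testing, on 1 array, so Tyrobp was not tested.

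Among the effectors, Ctss was clearly detected. Its probe (mm9 chr3:95360245-95360304) read 10.19 and 10.36 with the control vector, 9.91 and 10.31 with miR-26a, and 10.22 and 10.28 with the sponge, the 82.4 to 84.2 percentile of all probes. The groups overlapped.

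C1qb encodes 1 of the chains of complement C1q, which macrophages secrete. It gave a low signal on every array, with 5.61 and 5.80 in control cells, 5.68 and 5.54 with miR-26a, and 6.02 and 5.89 with the sponge (mm9 chr4:136436578-136436637). Both sponge arrays were above the other 4. The partner chains C1qa and C1qc, from the list of monocyte and macrophage genes, were detected on 0 of 6 arrays.

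Lyz1 and Lyz2, neighbouring lysozyme genes of Paneth cells and of myeloid cells, gave dim signals that were spread widely between arrays. The Lyz1 probe (mm9 chr10:116724862-116724921) read 5.62 and 4.97 with the control vector, 4.33 and 2.40 with miR-26a, and 6.33 and 4.92 with the sponge. Only the second miR-26a array was not detected, and both miR-26a arrays lay below the other 4. The Lyz2 probe (mm9 chr10:116719175-116719234) read 3.56 and 1.57, 1.33 and 1.38, and 4.14 and 3.07 in the same order, and was detected on the first sponge array alone. The 2 probes share no run longer than 6 bases.

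For Lyz2, no fold is given, because 1 of 2 sponge arrays and none of the control and miR-26a arrays were above background. The detected value, 4.14, lay above the dimmest detected signal of its own array, 3.69.

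The macrophage genes Mpeg1 and Emr1 were at the limit of detection. Emr1 gave 4.10 and 4.40, 4.53 and 3.91, and 2.44 and 4.89 in control, miR-26a and sponge cells, detected on 5 arrays (mm9 chr17:57620350-57620409). The sponge arrays were the lowest and the highest of the 6. The second Emr1 probe lay at 1.41 to 1.49, detected on 0 arrays. Mpeg1 was detected on 1 array, the first with miR-26a, at 3.95, so no fold is given. Its second probe was detected on 0 arrays, at 1.50 to 1.85.

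Whether raising or sequestering miR-26 changed these signals was tested with limma over all probes that passed a limit on dim signals, with the experiment as a block and Benjamini-Hochberg adjustment over 20168 probes. Of the 16 member probes, 6 passed, for Csf3r, Siglech, Ctss and C1qb and with 2 for Csf1r. With miR-26a, 0 of the 6 changed at an adjusted p under 0.05, and 0 had an unadjusted p under 0.05. Over all probes tested, 5.14% were lower and 4.5% higher, and 27.3% had an unadjusted p under 0.05. With the sponge, 0 of the 6 changed, and 1, for Csf1r, had an unadjusted p under 0.05 (16.1% of all probes tested). Only 0.00992% of all probes were higher with the sponge and 0% lower, so the count for the members does not set them apart. Between miR-26a and sponge, 0 of the 6 changed, against 8.49% of all probes lower and 8.28% higher with miR-26a. The median change of the 6 probes was -0.06 with miR-26a and 0.04 with the sponge, against 0.01 and 0.00476 over all probes tested.

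The brightest Csf1r probe had the largest difference. Its log2 change with the sponge was -0.69 ± 0.17 (SE, 2 arrays a group, 95% interval -1.11 to -0.27), at an unadjusted p of 0.0075 from limma and an adjusted p of 0.223. The difference from the control array of the same experiment was -0.97 and -0.41, and the change was -0.38 without the first sponge array and -1.01 without the second. The second Csf1r probe changed by 0.09 ± 0.20 (95% interval -0.39 to 0.58, adjusted p = 0.833 in limma), so the 2 probes of the gene differed in sign. With miR-26a, they changed by -0.04 ± 0.17 and -0.08 ± 0.20. Between miR-26a and sponge, the brightest probe differed by 0.65 ± 0.17 (limma, adjusted p = 0.0536), and by 0.34 without the first sponge array.

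The change of C1qb with the sponge was 0.24 ± 0.10 (95% interval -0.01 to 0.50, adjusted p = 0.326 in limma). It was 0.083 without the first control array, 0.41 without the second and 0.11 with normexp background correction. Its change with miR-26a was -0.10 ± 0.10, and the difference between miR-26a and sponge was -0.34 ± 0.10 (adjusted p = 0.0769), or -0.16 with normexp. Csf1r and C1qb were the members whose control and sponge arrays did not overlap, 2 of the 6 tested probes, against 37.7% of all tested probes. The same 2 did not overlap between miR-26a and sponge (50.9% of all), and 0 of the 6 did not overlap between miR-26a and control (49.3% of all).

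The remaining tested probes gave narrower intervals. Ctss changed by -0.17 ± 0.10 with miR-26a (95% interval -0.41 to 0.08, adjusted p = 0.339 in limma) and by -0.03 ± 0.10 with the sponge. The Csf3r probe changed by -0.01 ± 0.09 with miR-26a (95% interval -0.23 to 0.21) and by 0.05 ± 0.09 with the sponge (-0.17 to 0.26). The bright Siglech probe changed by 0.06 ± 0.07 (-0.12 to 0.24) and by 0.04 ± 0.07 (-0.15 to 0.22). The 4 intervals of these bright probes lie between -0.23 and 0.26.

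**Figure D3:**
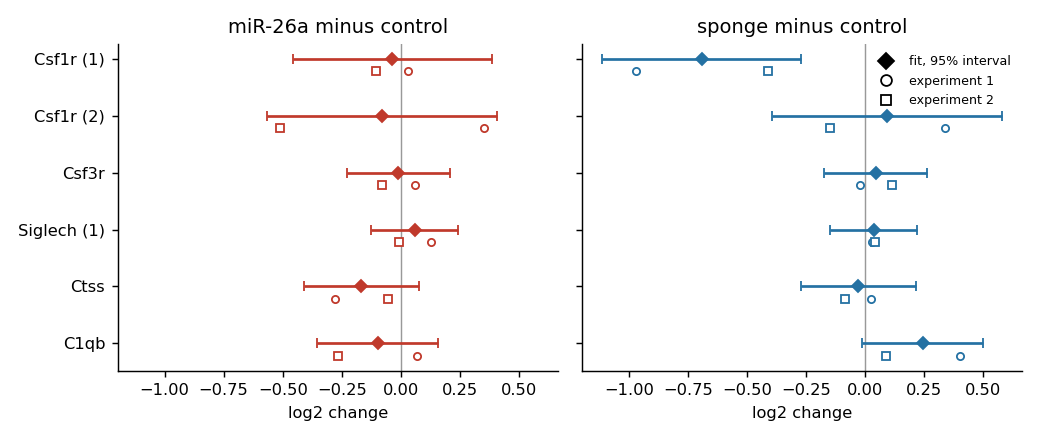
log2 change against control (x axis) of the 6 tested member probes with miR-26a (left) and the sponge (right). Diamonds are limma estimates with their 95% interval, and open circles and squares are the differences within experiments 1 and 2. Only the interval of the first Csf1r probe with the sponge (-1.11 to -0.27) leaves out 0.

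The block of the fit also gives the difference between experiments. Experiment 2 was above experiment 1 by 0.27 ± 0.07 for Csf3r (adjusted p = 0.0911 in limma), by 0.25 ± 0.06 for the bright Siglech probe (adjusted p = 0.0774) and by 0.21 ± 0.08 for Ctss (adjusted p = 0.17). At 75th percentile scaling the difference was smaller, at 0.11 for Csf3r (adjusted p = 0.293 in limma) and 0.094 for the bright Siglech probe (adjusted p = 0.336). None of the 6 member probes passed the test, against 1.57% of all probes lower and 1.75% higher. The 23 probes that share a word with the bright probes on the same strand had a median difference of 0.17. It was -0.09 for the 19 on the opposite strand and -0.00331 over all probes. The same-strand sharers were also brighter (median signal 11.16 against 6.44), and no probes matched for brightness were compared. The cause of these differences was not tested. These medians were taken with quantile normalisation alone.

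Dropping the limit on dim signals allowed the faint members to be tested as well. Lyz1 then differed from control by 0.33 with the sponge (adjusted p = 0.741 in limma over the larger set of probes). No change with miR-26a is given for Lyz1 over both experiments, since its second miR-26a array was not above background. In experiment 1, where both arrays were detected, the difference was -1.30. In this setting 0 probes on the array passed the adjusted threshold of limma against control. The Tyrobp difference was -0.48 with miR-26a (adjusted p = 0.461 in limma), or -0.19 with normexp.

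Over the 6 arrays, the brightest Csf1r probe had the largest SD of the tested members (0.39). Among 4050 named probes with at least 0.5 of that SD, the most like it were Gm13304, Tmem108, Cdh26, Gm9924 and Ren2, with Pearson's r between 0.968 and 0.982 over 6 arrays, and 54 had an r above 0.9. Each of the 5 was lowest on the 2 sponge arrays. The Csf1r probe was itself lowest there, so choosing by r favoured such probes. With 6 points and 4050 candidates these are descriptions.

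The labelled cell type was checked against B lineage genes, of which 14 of 15 had a probe detected on all 6 arrays. Cd79b, a signalling chain of the B cell receptor, lay at 16.26 to 16.78 and the surrogate light chain gene Vpreb1 at 17.66 to 17.80. Only Blk was not detected on every array, at 2.79 to 4.02. The recombination genes Rag1 and Dntt fell with miR-26a, by 2.47 and by 1.12 on the log2 scale (adjusted p = 0.00555 and 0.00548 in limma), and the other 15 tested B lineage probes did not pass the test with either construct.

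Other genes of the mature myeloid programme were partly detected. On no array were 8 of 16 granulocyte probes and 20 of 32 monocyte and macrophage probes detected, against 44.9% of all probes. Of 14 granulocyte genes with a probe, 7 were detected on no array, among them Ltf, Ly6g, Mmp9 and S100a8, which encode granule or cytosolic proteins and a surface antigen of neutrophils. Elane, the neutrophil elastase gene, lay at 7.79 to 8.23 and was the only one bright enough to be tested. Of 24 monocyte and macrophage genes, 17 were detected on no array, including Cd14, Cx3cr1, Mrc1 and Cd163, and 10 of the 32 probes, among them probes for Cd68, Hmox1, Ifitm3, Itgam and Marco, were detected on all 6. The summed processed signal of the granulocyte list was 374 to 435 in control cells, 363 to 387 with miR-26a and 364 to 394 with the sponge, and that of the monocyte and macrophage list 5406 to 5953, 5525 to 5774 and 4899 to 6696. The 16 member probes summed to 108641 to 133805 over the 6 arrays and to 1588 to 1943 without the 2 bright probes. Of the latter sums, the Ctss probe alone gave 957 to 1323. All these sums are of processed signals, which were not normalised between arrays. The part of admixed myeloid cells in the member signals was not tested.

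**Figure D4:**
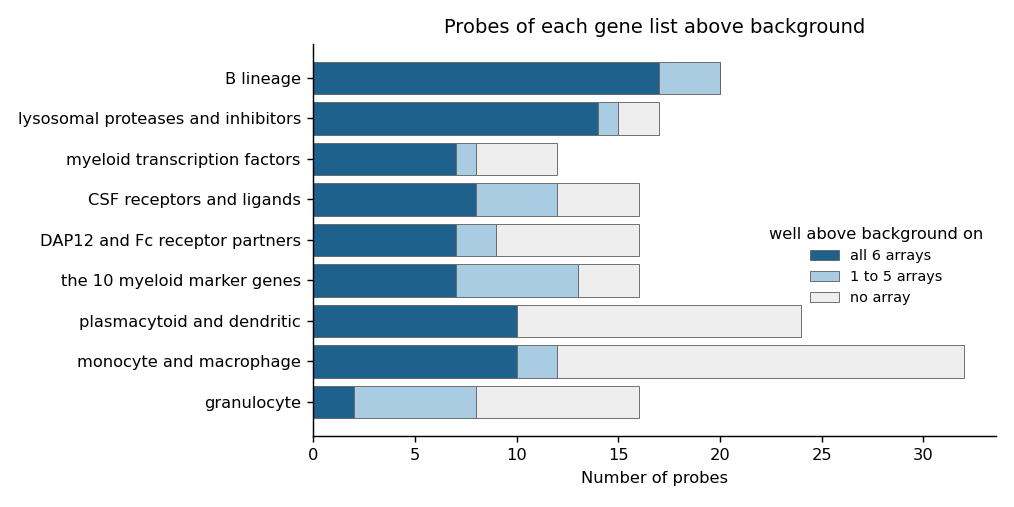
Number of probes (x axis) of each gene list that were detected on all 6 arrays (dark), on 1 to 5 arrays (light) or on no array (grey). All 20 B lineage probes were detected on at least 1 array, whereas 20 of 32 monocyte and macrophage probes and 8 of 16 granulocyte probes were detected on none.

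Of 12 genes with a probe on the list of myeloid transcription factors, 7 were detected on all 6 arrays. A bulk signal does not assign a factor to myeloid or to B cells. Sfpi1, which encodes PU.1, a factor of both myeloid and B cells, lay at 7.87 to 8.33, Irf8 at 14.12 to 14.79 and Gfi1 at 11.47 to 11.94. Cebpa, Cebpe and Egr2 were detected on 0 arrays. Of the 6 tested factor probes, 1 rose and 1 fell with miR-26a and 0 changed with the sponge. Of all probes tested, 4.5% rose and 5.14% fell with miR-26a, the shares to set beside the counts of each list here and below. Id2, an inhibitor of E proteins, rose by 0.88 (adjusted p = 0.0133 in limma), and the orphan nuclear receptor gene Nr4a1 changed by -0.44 (adjusted p = 0.0199).

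Partners of the member receptors were also read. Of 9 genes for colony stimulating factors and related receptors and ligands, 6 had a probe detected on all arrays. Against control, 0 of 7 tested probes changed with either construct. At an unadjusted p under 0.05 in limma were 2 with miR-26a and 0 with the sponge, against 27.3% and 16.1% of all probes tested. Csf2ra and Csf2rb, which form the GM-CSF receptor, lay at 12.19 to 12.69 and at 9.74 to 10.23 for their brightest probes. Csf3 and Csf2, which encode G-CSF and GM-CSF, were detected on 0 arrays, and Csf1 lay at 8.14 to 8.54. Of 7 tested probes for partners of DAP12 and the Fc receptor gamma chain, 1 fell with miR-26a, Fcgr3, which encodes a low affinity IgG receptor, by 0.51 on the log2 scale (adjusted p = 0.034 in limma). Fcer1g, the gamma chain itself, lay at 5.92 to 6.37, Trem1 at 8.65 to 8.94, and Trem2 was detected on 0 arrays.

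Among 7 tested probes for genes of plasmacytoid and other dendritic cells, which would accompany Siglech, 1 fell with miR-26a. This was Cox6a2, a cytochrome oxidase subunit, which fell by 2.19 on the log2 scale (adjusted p = 0.00337 in limma) and lay at 7.88 to 10.93 over the arrays. Tcf4, an E protein that plasmacytoid cells use, lay at 11.82 to 12.07 and Bst2 at 9.05 to 9.64. Ccr9, Klra17 and Runx2 were detected on 0 arrays. These signals do not by themselves point to plasmacytoid cells.

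Of the lysosomal proteases and inhibitors that act beside cathepsin S, 12 of 14 genes had a probe detected on all arrays. Ctsz lay at 12.75 to 13.02, Ctsb at 12.53 to 12.73 and Ctsd at 11.55 to 11.80. Of 10 tested probes, 1 rose with miR-26a, Lgmn, which encodes legumain, by 0.46 (adjusted p = 0.02 in limma), and 0 changed with the sponge. In the monocyte and macrophage list, the lysosomal glycoprotein gene Cd68 rose by 0.33 (adjusted p = 0.0421). For Itgam, which encodes CD11b, 1 probe changed by -0.82 (adjusted p = 0.0072), while the brighter probe changed by 0.06 (adjusted p = 0.744). None of the 4 tested probes of that list changed with the sponge.

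Promoter sequences of 7 of the 10 members (Csf3r, Siglech, Lyz1, Lyz2, Ctss, C1qb and Mpeg1), from RefSeq on GRCm38.p6, were searched on both strands for short words of myeloid factors. The PU.1 word GAGGAA occurred in 4 of the 7 (C1qb, Csf3r, Ctss and Siglech) and in 28.3% of all 32851 promoters. The C/EBP word TTGCNNAA occurred in Lyz1 and Siglech and in 10.8% of all promoters, and the RUNX word TGTGGT in Lyz2 and Siglech and in 16.8%. These are matches of letters in windows of equal length.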

How the data were processed

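For each array the authors deposited the scanner output of Agilent Feature Extraction (10.7.1.1 per the labels, 10.7.3.1 per the file headers), with a background-subtracted intensity for each spot and flags. The authors also deposited a table of quantile-normalised intensity, which is on a linear scale, and its log2 values correlate at 0.999997 or higher with those computed here. Gene names and mm9 positions are those of the array design.

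Here, processed signals were quantile-normalised, log2-transformed and averaged over the unflagged spots of a probe. Tested probes had the flag for a signal well above background on 1 array or more and a processed signal over 50 on 4 or more. The methods state this number of arrays unclearly. limma 3.58.1 (R 4.3.3) was fitted to the 6 arrays with the experiment as a block, since the methods normalise to the control of each experiment. The fit was also run on simulated arrays, with independent noise of the same spread for every probe. That setting differs from these arrays, so it does not vouch for the calls here. The replicate numbers were taken to pair the samples because of the methods. Deviations of same-numbered arrays from their group means correlated at 0.379 to 0.588 between groups. With 2 arrays a group, any technical trend shared by arrays can give such values, so they do not establish the pairing. The titles of the control samples cite other sample records, so the control arrays may also have served another series. Whether they were made beside the other arrays is known here only from the replicate numbers and the shared slide. p-values measure the spread left after the block, that is how differences between groups varied between 2 experiments of one line. The members and lists were chosen with earlier results of these data known. Every member probe was accounted for. From other lists, up to 6 genes with an adjusted p under 0.05 and up to 4 bright ones were to be named, and those named beyond this, such as undetected markers, were chosen after their values were seen. Lists of T and NK, erythroid, mast cell, megakaryocyte and stromal markers were also read. Alternatives were other scalings, filters and fits, and leaving out each array.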

Additional observations from a re-analysis of the deposited data

Results flagged for a closer look

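The dimmest Csf1r probe read above control on both miR-26a arrays and below it on both sponge arrays. Its values differed from control by 0.24 and -0.20 in experiment 1, and by 0.74 and -0.15 in experiment 2, with a mean difference of 0.67 between miR-26a and sponge. The control and sponge arrays of experiment 2 were not above background for this probe, so its differences there have no reliable size or order. With normexp the difference between miR-26a and sponge was 0.13. The difference was not tested in the report.

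Tyrobp had miR-26a changes of -0.06 and -0.91 and sponge changes of 0.07 and 0.01, a difference of -0.52 between miR-26a and sponge, or -0.19 with normexp. Its probe was too dim for the limit on signals, and the difference was not tested in the report (adjusted p = 0.367 in limma without the limit).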

How the results depend on the processing

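Of the member probes tested, none passed the test in a comparison with control under any alternative run. The brightest Csf1r probe passed between miR-26a and sponge at 75th percentile scaling (adjusted p = 0.0418 in limma), with normexp (0.0193), without the second miR-26a array (0.0242) and without the second sponge array (0.0414). The bright Siglech probe passed between experiments with normexp (0.0279), but not at 75th percentile scaling (adjusted p = 0.336 in limma). The cause was not tested. The counts over all probes moved more. Without the replicate block, 311 probes changed between miR-26a and control in place of 1944, and 997 between miR-26a and sponge in place of 3381. The pairing changed no other count by over 1.5 times and no call of a member. With no signal limit and with no filter at all, 0 probes changed in each comparison of groups. For the sponge against control the count was 2, and it was 4 at 75th percentile scaling, 36 with normexp, 10 with the limit on 2 arrays and 0 with probes of a gene averaged. For the experiments it was 669, and 1186 at 75th percentile scaling and 1527 with normexp, the last chosen after seeing the data.

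Leaving out 1 array at a time, with a lone array assumed to vary like the others, gave 104 to 1599 changed probes for miR-26a against control (104 and 133 without the first and second control array, 1123 without either sponge array, 1288 without the second miR-26a array). It gave 0 to 35 for sponge against control, with 35 without either miR-26a array and 0 otherwise. It gave 410 to 2436 for miR-26a against sponge, with 432 and 410 without the first and second sponge array and 1883 without either control array. Between experiments it gave 0 to 1384, with 1384 without either miR-26a array and 0 otherwise. Values of members near 0 changed sign. With probes averaged, Csf1r gave -0.30 for the sponge and 0.24 for miR-26a against sponge, set against the dimmer of its tested probes. The other sign changes were -0.022 (normexp) and -0.00262 (authors' values) for that Csf1r probe between experiments, 0.014 for Csf3r with miR-26a (normexp), -0.00878 (75th percentile) and -0.038 (normexp) for Siglech between miR-26a and sponge, 0.00833 (75th percentile) and 0.017 (normexp) for Ctss with the sponge, and 0.039 (75th percentile) and 0.00619 (normexp) for C1qb between experiments.

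With 1 array left out, the brightest Csf1r probe ranged from -0.24 to 0.17 with miR-26a, from -1.01 to -0.38 with the sponge, from 0.34 to 0.97 between miR-26a and sponge and from -0.30 to 0.050 between experiments. The dimmer one ranged from -0.42 to 0.26 with miR-26a, from -0.24 to 0.43 with the sponge, from -0.48 to 0.14 between miR-26a and sponge and from -0.22 to 0.21 between experiments. Csf3r ranged from -0.11 to 0.093 with miR-26a, from -0.059 to 0.15 with the sponge and from -0.16 to 0.048 between the 2, and Siglech from -0.012 to 0.13, from -0.00346 to 0.074 and from -0.047 to 0.094. Ctss ranged from -0.14 to 0.082 with the sponge and from -0.28 to 0.00249 between miR-26a and sponge. C1qb ranged from -0.26 to 0.064 with miR-26a, from 0.083 to 0.41 with the sponge, from -0.43 to -0.26 between miR-26a and sponge and from -0.14 to 0.029 between experiments. Dim signals limit the rest: 10 of the 16 member probes were too dim to test.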

Other observations

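Markers of other cell types of the marrow were read in the same way. Of 13 T and NK cell genes, 6 had a probe detected on all arrays. Cd3e lay at 8.71 to 9.11, Cd4 at 9.29 to 9.76, Lck at 9.68 to 10.43 and Nkg7 at 9.66 to 10.09, while Cd3g, Cd8a and Ncr1 were detected on 0 arrays. None of the 6 tested T and NK probes passed the test with either construct. At an unadjusted p under 0.05 in limma, 2 were lower with miR-26a and 4 with the sponge. Of all probes tested, 27.3% and 16.1% had such a p, in either direction.

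Of 9 erythroid genes, 4 had a probe detected on all arrays and 4 were detected on no array, among them Hbb-b1 and Hbb-b2. Of their probes, 0 were bright enough to be tested. Among 8 mast cell and basophil genes, Tpsb2 alone had a probe detected on all arrays, at 5.85 to 6.16, and its other probe was detected on none. Of 6 megakaryocyte genes, 3 had a probe detected on all arrays, and Gp9 alone was tested and lay at 5.95 to 7.27. Of 9 stromal and endothelial genes, 7 were detected on no array, and Pecam1 lay at 8.63 to 9.22. None of the tested probes of these lists passed the test with miR-26a or the sponge against control. Between miR-26a and sponge, Gp9 was higher with miR-26a by 0.92 on the log2 scale (adjusted p under 0.05 in limma). In that comparison 8.49% of all probes tested were lower and 8.28% higher. Probes of the lists above also passed in it. Lower with miR-26a were 3 of 17 tested B lineage probes and 2 of 7 for DAP12 and Fc receptor partners. So was 1 of 7 for CSF receptors and ligands. Of the myeloid factors and of the dendritic cell genes, 1 probe each was lower and 1 higher. Of the lysosomal proteases, 1 probe was higher.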
